A study of Mus musculus with 46 samples.

Results

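The bone morphogenetic protein (BMP) genes described here are 10 rows of the 33331 gene rows measured: the ligand genes Bmp2, Bmp4 and Bmp7, the homeobox genes Msx1 and Msx2, the response genes Id1, Id2, Id3 and Smad6, and the secreted antagonist gene Sostdc1. They were picked by name as ligands, targets and inhibitors of the pathway, with earlier results of these data known. Each was found in both the count table and the table of TPM, a measure scaled by transcript length and library size. The RNA came from whole gonads of mouse embryos at E12.5, soon after the onset of sex differentiation, with poly(A) selection before library preparation. The 46 libraries fall into 12 groups of sex and genotype. The genotypes are wild type and mutations of Enh13, a remote enhancer of Sox9, labelled as an insertion of 1bp (1bp-ins) or a deletion of 3bp (3bp-del), each heterozygous or homozygous, and a further group labelled 3bp-12bp-del-hom, whose 2 deletion sizes the labels do not explain. XX and XY embryos of each genotype gave 3 libraries a group, except for 5 libraries in each of the XX homozygous groups and in the XY 1bp-ins and 3bp-del homozygotes. No treatment or transgene is given for any group, and nothing in the labels says that the replicates of a group were separate animals, so p-values measure the spread between these libraries, which may be technical.

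BMP ligands are secreted dimers that bind type I and type II serine/threonine kinase receptors, which phosphorylate SMAD1, SMAD5 and SMAD9. These join SMAD4 in the nucleus and switch on direct targets, among them the Id genes, whose proteins block basic helix-loop-helix transcription factors, the Msx genes, whose proteins repress transcription, and Smad6, whose protein inhibits the pathway in return. In the fetal ovary Bmp2 is expressed by the somatic cells that become granulosa cells, and Msx1 and Msx2 are known there for their part in the entry of germ cells into meiosis.

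Each library held 29909111 to 46150400 estimated counts. Sox9, whose enhancer was mutated, was at 7.78 to 12.03 CPM in wild-type XX (counts scaled to library size), 137 to 268 CPM in the 15 homozygous XX libraries and 85.7 to 163 CPM in wild-type XY. Over the 7 markers of pregranulosa cells, the supporting cells of the ovary, the summed level was 567 to 748 CPM in wild-type XX, 146 to 423 CPM in the homozygous XX libraries and 126 to 277 CPM in wild-type XY. Over the 8 markers of Sertoli cells, the supporting cells of the testis, it was 23.3 to 26.7, 319 to 1806 and 540 to 1364 CPM, and no marker of either list was at 0 in a whole group. Some libraries stood apart. Replicate 3 of wild-type XY and replicate 4 of the XX 3bp-del homozygotes carried mesonephros markers (210 and 114 CPM over 6 genes without Emx2, which the gonad also expresses, against 13.1 to 21.5 and at least 23.9 CPM in their fellows). Other marker sums of wild-type XY replicate 3 stood apart too. Its Sertoli sum was lowest in the group (540 against 1364 and 1236 CPM). Its pregranulosa sum (277 against 126 and 174 CPM) and macrophage sum (58.75 against 26.45 and 26.8 CPM) were highest. In wild-type XX, the first replicate carried adrenal markers at 162 CPM, against 4.02 and 4.69 CPM. Smaller adrenal sums stood above their fellows in XY 3bp-del heterozygous replicate 1 (62.5 against 7.60 and 10.1 CPM), XX 1bp-ins heterozygous replicate 2 (45.8 against 3.55 and 8.25 CPM) and XX 1bp-ins homozygous replicates 1, 3 and 4 (33.8, 40.5 and 37.8 against 3.96 and 7.45 CPM). Surface epithelium markers stood at 423 CPM in the XY 3bp-del homozygous replicate 1, against at least 131 CPM in its fellows.

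In the wild-type ovary Bmp2, Msx1 and Msx2 were high and in the wild-type testis they were low, while Bmp7 went the other way. Of the 10 genes, 4 were lower in XY (Bmp2, Msx1, Msx2 and Id3) and 1 was higher (Bmp7), by edgeR's quasi-likelihood test at an adjusted p under 0.05. Of all 15730 genes tested, 11% were called in this comparison, 5.94% lower and 5.1% higher. The median log2 fold change of the 10 genes was -0.511, against -0.00235 over all genes tested. Whether an RNA is lower because fewer cells of a type were present or because each cell held less of it cannot be told apart in whole gonads.

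Bmp2 stood at 50.9, 59.6 and 63.8 CPM in the 3 wild-type XX libraries and at 10.2, 9.89 and 9.43 CPM in the 3 wild-type XY libraries. The sexes did not overlap, and the XY libraries lay within 1 CPM of each other. The difference was -2.59 ± 0.11 on the log2 scale (± SE), 6.004-fold, with an adjusted p of 0.000141. Bmp2 lies on mouse chromosome 2 (chr2:133552159-133562885, plus strand, GRCm38).

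Msx1, on chromosome 5, was at 61.4, 66.3 and 78.2 CPM in wild-type XX and at 6.42, 7.77 and 6.10 CPM in wild-type XY. Its sexes lay further apart than those of Bmp2, by -3.37 ± 0.15 log2 units or 10.3-fold (adjusted p = 0.000141). Msx2, on chromosome 13, was at 10, 9.30 and 8.62 CPM in XX and at 0.934, 2.16 and 2.41 CPM in XY. It too had no overlap, with a log2 fold change of -2.38 ± 0.35 (adjusted p = 0.00701). Per length of transcript, Msx1 was 63.3 ± 7.0 TPM in wild-type XX (SD, n = 3), Bmp2 27.7 ± 2.8 TPM and Msx2 6.62 ± 0.58 TPM, so the 2 homeobox genes differed in level by more than their replicates did.

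Because Msx1 and Msx2 fell together in the comparisons below, the bases before their start sites are shown, from position -250 to -50 relative to the start that RefSeq gives on GRCm38.p6. The Msx1 stretch is chr5:37824635-37824835 and the Msx2 stretch chr13:53472830-53473030, both on the minus strand and written 5′ to 3′. The 2 annotations differ for Msx2: GENCODE places the gene at chr13:53466884-53473074, so its stretch lies inside that gene. The Msx1 stretch lies before the gene in both. Capitals mark the motif CCAAT read on either strand, a motif picked after these stretches had been read.
Msx1: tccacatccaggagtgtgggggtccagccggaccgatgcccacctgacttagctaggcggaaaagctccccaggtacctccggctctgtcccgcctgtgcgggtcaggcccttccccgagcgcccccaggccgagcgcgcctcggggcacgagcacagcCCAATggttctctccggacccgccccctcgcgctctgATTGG
Msx2: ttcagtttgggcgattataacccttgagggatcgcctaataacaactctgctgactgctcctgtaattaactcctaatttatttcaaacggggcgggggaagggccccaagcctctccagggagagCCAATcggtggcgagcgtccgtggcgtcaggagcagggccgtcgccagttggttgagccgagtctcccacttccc
CCAAT is common: 37.4% of the 32851 mouse promoter windows of 300 bases hold it on either strand. It was not particular to this pair, with 3 sites in the window of Id2 and 1 in that of Smad6. The windows of Bmp4 and Id3 held 0.

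A further search was made for GGCGCC, the palindromic core of the element through which SMAD1 and SMAD5 bind BMP target genes, in the 6 of 10 genes with a RefSeq window (Bmp4, Msx1, Msx2, Id2, Id3 and Smad6). Id2 alone of these 6 held it, at 1 site, and the stretch of chr12:25096306-25096335 (minus strand, positions -243 to -214) is shown with the motif in capitals. GENCODE places Id2 at chr12:25093799-25097140, so this stretch lies inside that gene. The window of Id3 also lies inside its GENCODE gene.
Id2: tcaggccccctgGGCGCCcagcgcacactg
Of all windows, 11.9% held GGCGCC. The longer form, GGCGCC then NNNNN then GTCT, was in 0.0731% of windows, on either strand, and in 0 of the 6.

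**Figure D1:**
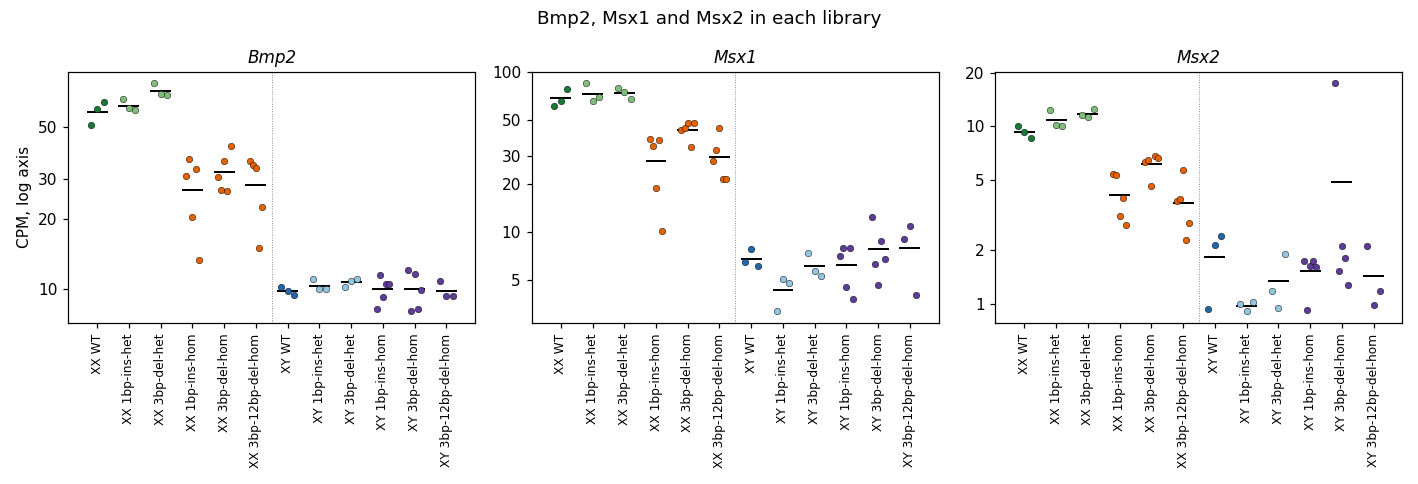
Levels of Bmp2, Msx1 and Msx2 in every library (points) with the group mean (bar), in CPM on a log axis, for the 12 groups of sex and genotype. Bmp2 and Msx1 are highest in wild-type and heterozygous XX, lower in the 3 homozygous XX groups and lowest in XY, and 1 XY 3bp-del homozygous library reaches 17.5 CPM of Msx2.

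Among the remaining ligands, Bmp7, which acts widely in developing epithelia, was at 25.8, 21.1 and 22.4 CPM in wild-type XX and at 39.8, 33.5 and 37.5 CPM in wild-type XY. XY was higher in every library, by 0.65 ± 0.12 log2 units (adjusted p = 0.0149). This call was lost without replicate 2 or 3 of wild-type XX (adjusted p = 0.0822 and 0.0705), without replicate 1 of wild-type XY (adjusted p = 0.0646) and on log2(TPM + 1) with limma. Bmp4, a ligand of the mesonephros and the early genital ridge in mice, was at 14.9, 9.09 and 4.97 CPM in XX and at 8.20, 10.96 and 19.0 CPM in XY. The sexes overlapped, and the highest library of each was the 1 that carried markers of neighbouring tissue. The part of that tissue in the Bmp4 values was not tested.

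Of the response genes Id1, Id2, Id3 and Smad6, Id3 passed the test between the wild types. Id3 was at 154, 152 and 156 CPM in XX and at 70.9, 81.2 and 113 CPM in XY. It was lower in each XY library, by 0.83 log2 units on average (-0.83 ± 0.16, adjusted p = 0.0202), with the mesonephros-marked replicate 3 the nearest to XX. The call was lost without any 1 of replicates 1, 2 and 3 of XX or replicates 1 and 2 of XY (adjusted p = 0.0684, 0.0811, 0.0894, 0.0565 and 0.0871). Id1 was at 52.1, 51.1 and 58.5 CPM in XX and 38.9, 46.1 and 35.1 CPM in XY. Id2 was at 84.2, 81.0 and 81.3 against 44.0, 58.2 and 72.2 CPM, and Smad6 at 43.8, 45.3 and 42.5 against 27.9, 29.4 and 38.5 CPM. None of the XX values of Id1, Id2 or Smad6 overlapped those of XY, but their adjusted p values missed the threshold (0.0638, 0.0897 and 0.0538). The share of all genes without overlap was not counted in this or any other comparison. In wild-type XY the mesonephros-marked replicate 3 had the highest Id2, Id3 and Smad6. Without that library 8 of the 10 genes were called, but so were 6937 of all 16015 genes tested, against 1738 of 15730 with it. Without replicate 2 or 3 of XX, or replicate 1 of XY, 3 were called, beside 639, 723 and 831 of all genes.

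Sostdc1, a secreted antagonist of BMP and WNT signals, was at 2.28, 1.20 and 0.402 CPM in wild-type XX and at 4.26, 2.64 and 8.02 CPM in wild-type XY. Every XY value lay above every XX value, but the spread was wide and the difference was not called (1.89 ± 0.66 log2 units, adjusted p = 0.124).

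In XX gonads homozygous for each Enh13 genotype, Bmp2, Msx1 and Msx2 fell and Bmp7 rose. These 4 genes were called in each of the 3 comparisons with wild-type XX. The count was 4 of 10 in 1bp-ins, 6 of 10 in 3bp-del and 8 of 10 in 3bp-12bp-del homozygotes, where 32.3%, 44.8% and 25.6% of all genes tested were called. Of all genes 17.2%, 21.6% and 14.6% were higher and 15.1%, 23.1% and 11% lower. The 3 comparisons share the 3 wild-type XX libraries. Median log2 fold changes of the 10 genes were -0.209, -0.125 and -0.638, against 0.00389, -0.0258 and 0.0024 over all genes.

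Bmp2 was at 30.9, 36.6, 20.5, 33.01 and 13.4 CPM in the XX 1bp-ins homozygotes, which puts every library below the lowest wild-type XX library and above every wild-type XY library. The 3bp-del homozygotes had 30.5, 26.8, 35.5, 26.6 and 41.2 CPM, and the 3bp-12bp-del homozygotes 35.6, 34.4, 33.2, 15.1 and 22.7 CPM. Neither group overlapped wild-type XX or wild-type XY. The log2 fold changes from wild-type XX were -1.12 ± 0.29, -0.88 ± 0.15 and -1.04 ± 0.27 (adjusted p = 0.0222, 0.00115 and 0.0268). The 1bp-ins call was lost without replicate 2 or 3 of wild-type XX (adjusted p = 0.071 and 0.0782). The 3bp-12bp-del call was lost without its own replicate 5 or without replicate 1, 2 or 3 of wild-type XX (adjusted p = 0.0558, 0.0574, 0.0813 and 0.0942).

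Msx1 was at 38.3, 34.5, 18.9, 37.7 and 10.1 CPM in the 1bp-ins homozygotes. Replicates 3 and 5, lowest for Msx1, were also lowest for Bmp2 in that group. The 3bp-del homozygotes had 43.4, 45.0, 48.1, 34.1 and 48.2 CPM and the 3bp-12bp-del homozygotes 27.7, 32.8, 45.0, 21.3 and 21.4 CPM. Every 1 of these 15 libraries was below wild-type XX and above wild-type XY. The log2 fold changes were -1.30 ± 0.40, -0.68 ± 0.11 and -1.21 ± 0.24 (adjusted p = 0.0392, 0.001075 and 0.0109). The 1bp-ins call was lost without its replicate 2 or 3 (adjusted p = 0.054 and 0.0787), without replicate 1, 2 or 3 of wild-type XX (adjusted p = 0.0837, 0.0957 and 0.119) and with no filter on low counts. With all 12 groups in 1 fit, the 3bp-del calls of Msx1 and Msx2 were lost (adjusted p = 0.0875 and 0.354).

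Msx2 was at 5.40, 5.35, 3.11, 3.96 and 2.79 CPM in the 1bp-ins homozygotes, 6.30, 6.45, 4.63, 6.85 and 6.60 CPM in the 3bp-del homozygotes and 3.77, 3.92, 5.68, 2.28 and 2.87 CPM in the 3bp-12bp-del homozygotes. No library reached the lowest wild-type XX value of 8.62 CPM. The log2 fold changes were -1.18 ± 0.23, -0.62 ± 0.14 and -1.33 ± 0.24 (adjusted p = 0.00508, 0.00403 and 0.00424), and these calls held without any 1 library of the groups compared. With all 12 groups in 1 fit the 1bp-ins call was lost (adjusted p = 0.0547).

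Bmp7 was at 34.2, 29.94, 34.4, 22.5 and 34.5 CPM in the 1bp-ins homozygotes, 36.4, 32.1, 29.6, 32.1 and 29.8 CPM in the 3bp-del homozygotes and 34.1, 32.5, 35.9, 38.3 and 37.9 CPM in the 3bp-12bp-del homozygotes. Replicate 4 of the 1bp-ins homozygotes lay within the wild-type XX range of 21.1 to 25.8 CPM and the other 14 libraries lay above it. The log2 fold changes were 0.42 ± 0.14, 0.44 ± 0.09 and 0.63 ± 0.08 (adjusted p = 0.0498, 0.00223 and 0.000865). The 1bp-ins value sits at the threshold: leaving out any library other than homozygous replicate 4 ended the call (adjusted p = 0.0555 to 0.167). Tested on log2(TPM + 1) with limma, neither the 1bp-ins nor the 3bp-del difference was called.

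**Figure D2:**
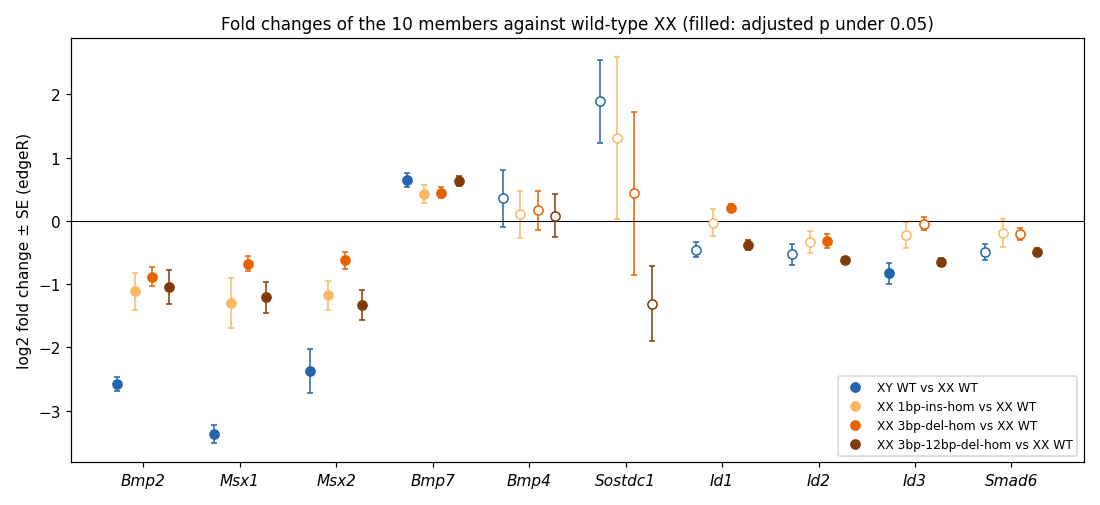
Log2 fold change (vertical axis, bars are ± SE, edgeR) of each of the 10 genes in wild-type XY and in the 3 homozygous XX groups, each against wild-type XX. Filled points passed an adjusted p of 0.05: Bmp2, Msx1 and Msx2 lie below 0 and Bmp7 above 0, filled in all 4 comparisons.

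Calls for the Id genes and Smad6 were not alike in the 3 mutants. In the 3bp-12bp-del homozygotes Id1, Id2, Id3 and Smad6 were all lower than in wild-type XX. In the 1bp-ins homozygotes 0 of these 4 were called by the main edgeR fit or by DESeq2 (5863 genes in all), and 0 had an unadjusted p under 0.05. With the replicate number as a block, however, edgeR called some of these 4 in that group, beside 4859 of all 16040 genes. In the 3bp-del homozygotes Id2 was called lower and Id1 higher. Differences between mutants were not tested. In TPM every 3bp-del homozygous library was below wild-type XX for Id2, Id3 and Smad6. The ranges were 64.8 to 106 against 119 to 127, 154 to 223 against 227 to 232 and 14.9 to 22.3 against 24.15 to 26.4. In 1bp-ins homozygotes Id3 and Smad6 overlapped wild-type XX in TPM. Spearman's rho of fold change with gene length was -0.388 in 1bp-ins, -0.477 in 3bp-del and -0.219 in 3bp-12bp-del homozygotes. The trend was not particular to these groups, with -0.408 and -0.448 in the XX 1bp-ins and 3bp-del heterozygotes. Against wild-type XY it was 0.0302 and -0.0439 in the XY heterozygotes and -0.513, -0.307 and 0.0716 in the XY homozygotes, in the same genotype order. Id2 and Id3 are among the shortest 17.7% of the genes, by a relative length taken from the ratio of counts to TPM.

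Id3 was at 94.4, 96.8, 111, 93.3 and 93.5 CPM in the 3bp-12bp-del homozygotes, all below the 152 to 156 CPM of wild-type XX (-0.66 ± 0.06 log2 units, adjusted p = 0.00021). The 1bp-ins homozygotes were spread from below to above wild-type XX, at 103, 128, 92.04, 159 and 179 CPM, and the 3bp-del homozygotes also crossed it, at 130, 138, 147, 175 and 171 CPM. Smad6 ran the same way, at 30.4, 30.4, 34.0, 28.4 and 32.6 CPM in the 3bp-12bp-del homozygotes (-0.49 ± 0.06, adjusted p = 0.000814) and 28.6, 34.1, 28.7, 45.5 and 55.5 CPM in the 1bp-ins homozygotes. In the 1bp-ins group replicates 4 and 5 had the highest Id1, Id2, Id3 and Smad6, and replicate 5 had the lowest Bmp2 and Msx1. Smad6 in the 3bp-del homozygotes was 31.9, 39.3, 39.8, 44.5 and 38.2 CPM and was not called.

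Id2 was at 49.5, 54.4, 55.1, 54.4 and 54.1 CPM in the 3bp-12bp-del homozygotes, below every wild-type XX library (-0.62 ± 0.05 log2 units, adjusted p = 9.75e-05). In the 1bp-ins homozygotes it was 54.4, 54.2, 54.4, 76.7 and 87.0 CPM, with replicate 5 above wild-type XX in CPM. In TPM every library of that group was below wild-type XX, at 67.1 to 110.7 against 119.4 to 127.2. In the 3bp-del homozygotes Id2 was 54.5, 67.7, 63.1, 83.1 and 66.9 CPM, with a log2 fold change of -0.32 ± 0.11 (adjusted p = 0.0442). Leaving out any library other than homozygous replicate 4 ended that call (adjusted p = 0.0513 to 0.111).

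Id1 was at 36.6, 45.9, 40.4, 40.3 and 43.9 CPM in the 3bp-12bp-del homozygotes, a log2 fold change of -0.38 ± 0.08 (adjusted p = 0.00673). That call was lost with all 12 groups in 1 fit (adjusted p = 0.0692). It was at 60.6, 60.9, 66.7, 59.3 and 67.9 CPM in the 3bp-del homozygotes, each above the wild-type XX range of 51.1 to 58.5 CPM (0.20 ± 0.07, adjusted p = 0.0308). Fold changes fell with gene length in this comparison (Spearman's rho -0.477 across genes, which are not independent replicates), and Id1 is among the shortest 9.52% of the genes. With that trend removed the difference in Id1 was -0.08, and on log2(TPM + 1) it was -0.05, neither of them called. The call was also lost without replicate 3 or 5 of the homozygotes or replicate 1 or 2 of wild-type XX (adjusted p = 0.0691, 0.0672, 0.103 and 0.135).

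The 9 endothelial markers summed to 673 to 719 CPM in wild-type XX, 485 to 629 CPM in the 1bp-ins, 453 to 575 CPM in the 3bp-del and 569 to 685 CPM in the 3bp-12bp-del homozygotes, and 0 of 9 were at 0. Of these markers 4, 6 and 0 were lower by edgeR, where 15.1%, 23.1% and 11% of all genes were lower. In the 3bp-12bp-del homozygotes 3 had an unadjusted p under 0.05, and 4 of the 5 libraries were below the wild-type XX range. The part of endothelial cells in the Id and Smad6 values was not tested.

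**Figure D3:**
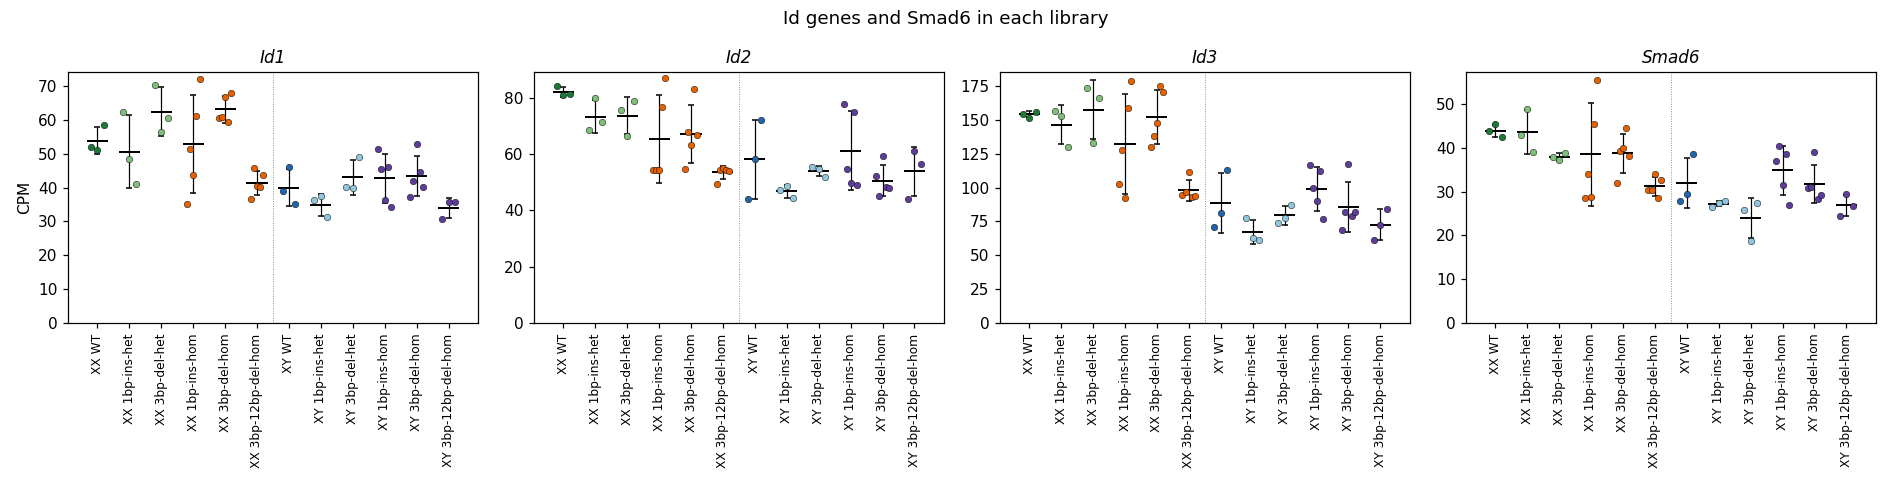
Levels of Id1, Id2, Id3 and Smad6 in every library (points) with the group mean and SD (bars), in CPM, for the 12 groups. The XX 3bp-12bp-del homozygotes lie close together and low, while the XX 1bp-ins homozygotes spread from 92.04 to 179 CPM for Id3.

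Bmp4 was not called in any XX homozygous group. Its levels were 7.76 to 16.3 CPM in the 1bp-ins, 9.60 to 13.8 CPM in the 3bp-del and 6.99 to 13.3 CPM in the 3bp-12bp-del homozygotes, all overlapping the 4.97 to 14.9 CPM of wild-type XX. Sostdc1 was at 0.616, 1.07, 0.885, 0.506 and 13.1 CPM in the 1bp-ins homozygotes and at 0.464, 0.352, 0.454, 7.26 and 0.329 CPM in the 3bp-del homozygotes. A library stood far above its fellows in each. Replicate 5 of the 1bp-ins homozygotes also had the highest Sertoli marker sum of the XX libraries (1806 CPM) and the lowest pregranulosa sum (146 CPM), with Amh, the anti-Müllerian hormone gene, at 871 CPM against 18.4 to 138 CPM. Replicate 4 of the 3bp-del homozygotes was the library with mesonephros markers. Their part in the Sostdc1 values was not tested.

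**Figure D4:**
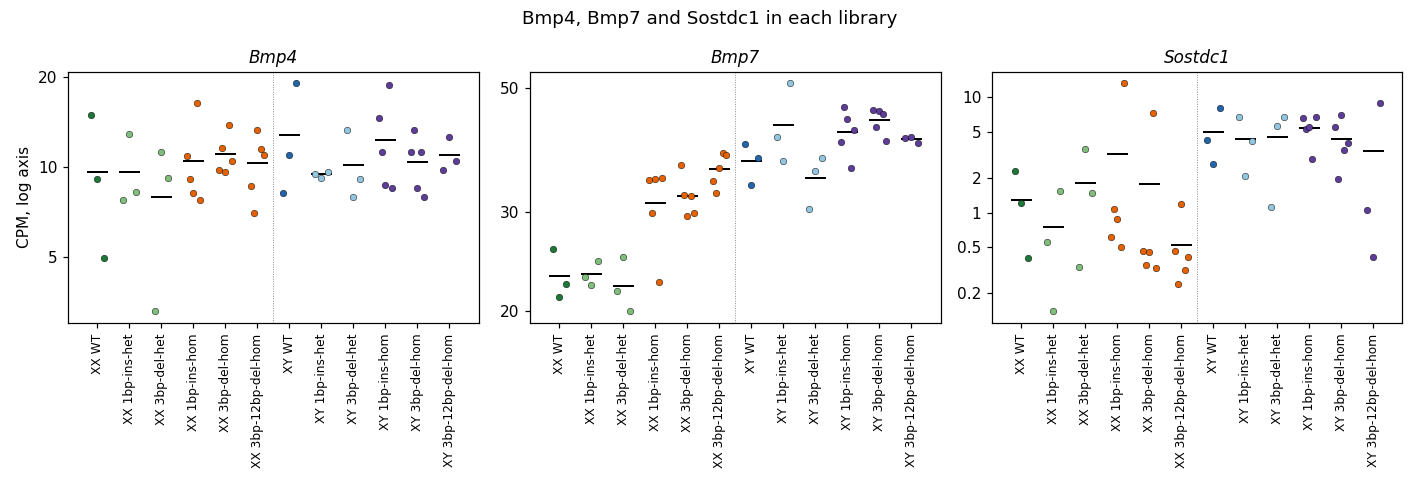
Levels of Bmp4, Bmp7 and Sostdc1 in every library (points) with the group mean (bar), in CPM on a log axis, for the 12 groups. Bmp7 is lowest in wild-type and heterozygous XX, and Sostdc1 is high in replicate 5 of the XX 1bp-ins homozygotes (13.1 CPM) and replicate 4 of the XX 3bp-del homozygotes (7.26 CPM).

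Set against wild-type XY rather than wild-type XX, Bmp2 and Msx1 were higher in XX 3bp-del and 3bp-12bp-del homozygotes. In 3bp-del homozygotes 5 of the 10 genes were higher than in wild-type XY and 0 lower (17.6% of all genes called, 8.6% higher and 8.99% lower). Bmp2 was higher by 1.71 ± 0.16, Msx1 by 2.70 ± 0.15, Msx2 by 1.76 ± 0.30, Id1 by 0.66 ± 0.10 and Id3 by 0.79 ± 0.16 log2 units (adjusted p = 0.000309, 3.03e-05, 0.00559, 0.0029 and 0.013). In 3bp-12bp-del homozygotes Bmp2 and Msx1 were higher and Sostdc1 was lower, 3 of 10 genes against 5.6% of all genes, 3.39% higher and 2.21% lower. These differences were 1.51 ± 0.27, 2.13 ± 0.27 and -3.24 ± 0.52 (adjusted p = 0.0176, 0.0056 and 0.0114). Sostdc1 in that group was 0.468, 0.242, 1.18, 0.321 and 0.414 CPM, below all 3 wild-type XY libraries. Bmp7 was not called against wild-type XY in any of the 3 groups, with differences of -0.25 ± 0.14, -0.20 ± 0.09 and -0.05 ± 0.08 log2 units.

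In 1bp-ins homozygotes 0 of 10 genes were called against wild-type XY by edgeR, where 0.126% of all genes were called, 0.0503% higher and 0.0754% lower. Bmp2 was 1.44 ± 0.31 and Msx1 2.04 ± 0.44 log2 units higher (adjusted p = 0.124 for both), although no library of the 2 groups overlapped for either gene. By an unadjusted p under 0.05 there were 4 genes, and DESeq2 called 3. Without replicate 5 of the homozygotes, in which both genes were lowest, edgeR called 3, among them Bmp2 and Msx1 (adjusted p = 0.00629 and 0.00622). Over all genes the calls rose from 20 to 575 without that replicate, and DESeq2 made 638. The Bmp2 call of the 3bp-12bp-del homozygotes was lost without replicate 1 or 2 of wild-type XY (adjusted p = 0.0605 and 0.0633), and the Id3 call of the 3bp-del homozygotes without replicate 1 (adjusted p = 0.0523).

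Ordered by mean level over the 12 groups, Bmp2 formed 3 tiers. The XX 3bp-del heterozygotes were highest at 71.6 CPM, followed by the XX 1bp-ins heterozygotes at 61.7 and wild-type XX at 58.1 CPM, the latter pair overlapping. The 3 homozygous XX groups came next at 32.1, 28.2 and 26.9 CPM, overlapping among themselves but not with the groups above or below. The 6 XY groups closed the order at means of 9.85 to 10.8 CPM, each overlapping its neighbour. For Msx1 the group means were 68.7 to 74.3 CPM in wild-type and heterozygous XX, 27.9 to 43.8 CPM in homozygous XX and 4.33 to 7.95 CPM in XY. Wild-type XX did not overlap the homozygous groups, but the XX 1bp-ins homozygotes, down to 10.1 CPM in replicate 5, overlapped the XY 3bp-12bp-del homozygotes, up to 10.8 CPM, and the XY 3bp-del homozygotes, up to 12.3 CPM.

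Heterozygous XX gonads, in which Sox9 stood at 10.8 to 14.3 CPM, had no call for Bmp2 or Msx1 by edgeR. Bmp2 was at 66.0, 60.1 and 59.0 CPM in 1bp-ins and 77.0, 69.2 and 68.7 CPM in 3bp-del heterozygotes. The latter lay above every wild-type XX library in CPM without passing the test (0.28 ± 0.09 log2 units, adjusted p = 0.0722, and 0.08 ± 0.09, adjusted p = 0.825, in 1bp-ins heterozygotes), while DESeq2 called it in 3bp-del heterozygotes (adjusted p = 0.0185). In TPM the 3bp-del heterozygotes overlapped wild-type XX (28.85 to 30.11 against 24.54 to 29.98). Over 8 alternative settings their Bmp2 difference ran from 0.0911 to 0.338 log2 units, and DESeq2 alone called it. Msx1 ranged from 65.8 to 85.5 CPM over the 6 libraries, with differences of 0.09 ± 0.11 and 0.09 ± 0.10 (adjusted p = 0.845 and 0.573). In 1bp-ins heterozygotes 0 of the 10 genes and 0% of all genes were called by edgeR, and 1 of the 10 had an unadjusted p under 0.05. DESeq2 called 0 of the 10, beside 89 of all 15694 genes. In 3bp-del heterozygotes, where 10.9% of all genes were called (4.78% higher, 6.15% lower), Smad6 was the 1 called gene, at 37.9, 37.1 and 38.9 CPM (-0.23 ± 0.06, adjusted p = 0.0422). It lost its call without any 1 of the 6 libraries (adjusted p = 0.0568 to 0.178).

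In XY gonads the 10 genes were not called in any mutant. Against wild-type XY, 0 of 10 were called by edgeR or DESeq2 in each of the 5 XY mutant groups, where 0% of all genes were called in 4 groups and 0.013% in 3bp-12bp-del homozygotes. At an unadjusted p under 0.05 there were 2 in 1bp-ins heterozygotes, 1 in 3bp-del homozygotes and 0 in the other groups. Bmp2 stayed between 8.04 and 12.2 CPM in the 19 mutant XY libraries and Msx1 between 3.16 and 12.3 CPM. The log2 differences of Bmp2 were 0.07 ± 0.11 and 0.12 ± 0.12 in the 1bp-ins and 3bp-del heterozygotes. They were 0.03 ± 0.13 in 1bp-ins, 0.02 ± 0.16 in 3bp-del and 0.0027 ± 0.13 in 3bp-12bp-del homozygotes. For Msx1 the differences were -0.65 ± 0.23 and -0.15 ± 0.20 in the heterozygotes and -0.12 ± 0.26, 0.19 ± 0.30 and 0.23 ± 0.35 in the homozygotes. The lowest adjusted p among these 10 values was 0.766, for Msx1 in the 1bp-ins heterozygotes.

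Msx2 in the XY 3bp-del homozygotes was at 17.5, 1.53, 2.10, 1.80 and 1.28 CPM. Replicate 1 exceeded the highest wild-type XX library, in the same library that stood apart in its surface epithelium markers, with Krt19, a keratin, at 108 CPM against 8.57 to 12.6 CPM and Msln, mesothelin, at 23.4 CPM against 0.0251 to 0.142 CPM. Bmp2 in that library was 12.2 CPM, the highest of the 22 XY libraries and far below the 50.9 CPM of the lowest wild-type XX library. The part of epithelial tissue in its Msx2 value was not tested.

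Whether a mutation changed the genes differently in XX and XY was tested as an interaction, the effect in XY minus the effect in XX. Of the 10 genes 0 were called in 1bp-ins, 1 in 3bp-del and 0 in 3bp-12bp-del homozygotes by edgeR, where 1.04%, 3.83% and 0.597% of all genes were called. By direction, 0.207%, 1.75% and 0.105% were higher and 0.834%, 2.07% and 0.492% lower. The called gene was Bmp2 in 3bp-del homozygotes, which fell in XX and was not called in XY (difference 0.89 ± 0.23 log2 units, adjusted p = 0.0416). This call was lost in 11 of 16 leave-one-out fits (adjusted p up to 0.114). They were those without replicate 1, 2, 3 or 4 of the XX or replicate 1, 3 or 5 of the XY homozygotes, replicate 2 or 3 of wild-type XX, or replicate 1 or 2 of wild-type XY. The Bmp2 differences in the other 2 genotypes were 1.15 ± 0.34 and 1.04 ± 0.33 (adjusted p = 0.157 and 0.211). Those of Msx1 were 1.185 ± 0.51, 0.85 ± 0.33 and 1.43 ± 0.44 (adjusted p = 0.389, 0.144 and 0.197). At an unadjusted p under 0.05 there were 3, 2 and 4 of the 10 genes, and DESeq2 called 1, 1 and 2, beside 407, 1570 and 425 over all genes. Without replicate 5 of the XX 1bp-ins homozygotes edgeR called 1 in 1bp-ins, Bmp2 (adjusted p = 0.0429), and without replicate 3 of wild-type XY it called 4 in 3bp-12bp-del. The counts over all genes were 215 and 2957 in these fits, against 171 and 97 with every library.

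Beyond the 10 genes, 47 further genes of the pathway were counted: 10 ligand, 10 receptor and co-receptor, 4 SMAD, 17 inhibitor and 6 target genes. Between the wild types 1 of 6 measured ligands, 2 of 10 receptors and co-receptors and 2 of 16 inhibitors were higher in XY and 2 inhibitors were lower, beside 5.1% of all genes higher and 5.94% lower. Of 4 SMADs and 5 targets 0 and 0 were called by edgeR or DESeq2 (0 and 1 at an unadjusted p under 0.05). DESeq2 called 2818 of all 15730 genes there. The gene with the smallest p among the inhibitors was Fst, the gene of follistatin, which binds activins and some BMPs. Fst was at 151.8 to 218.5 CPM in XX and 1.255 to 5.52 CPM in XY (-6.09 ± 0.57 log2 units, adjusted p = 0.00151). Acvr1, a type I receptor of BMPs, rose from 35.7 ± 1.9 CPM to 67.6 ± 8.7 CPM (SD, n = 3; 0.89 ± 0.12 log2 units, adjusted p = 0.00564). Bmp8a, a ligand gene, was higher by 2.79 ± 0.45 at levels below 1 CPM, and Rgmb, a BMP co-receptor gene, by 0.69 ± 0.13 (adjusted p = 0.0107 and 0.0161). Bmp8a lost its call without XX replicate 1 or 3 or XY replicate 1 (adjusted p = 0.0519 to 0.0563). Rgmb lost its call without XX replicate 2 or 3 or XY replicate 1 (adjusted p = 0.0625 to 0.0811).

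In the 3 homozygous XX groups Fst and the ligand gene Bmp5 were lower and Hey1, a helix-loop-helix repressor gene and BMP target in endothelium, was higher than in wild-type XX. Fst fell by 2.73 ± 0.54 log2 units in 1bp-ins, by 2.21 ± 0.16 in 3bp-del and by 2.36 ± 0.37 in 3bp-12bp-del homozygotes (adjusted p = 0.00844, 3.49e-05 and 0.00531). It stood at 27.3, 39.9 and 35.2 CPM on average. Bmp5 was at 11.9 to 18.2 CPM in wild-type XX and at 2.76 to 10.7, 3.63 to 5.86 and 3.07 to 5.95 CPM in the homozygotes, a log2 change of -1.31 ± 0.38, -1.59 ± 0.17 and -1.75 ± 0.23. In 1bp-ins the Bmp5 call was lost without replicate 1 or 2 of the homozygotes or any wild-type XX library (adjusted p = 0.0541 to 0.111). Hey1 rose by 0.51 ± 0.11, 0.48 ± 0.10 and 0.50 ± 0.07 (adjusted p = 0.00945, 0.00382 and 0.00133). On log2(TPM + 1) with limma its calls in 1bp-ins and 3bp-del were lost (0.252 and 0.229 log2 units, adjusted p = 0.127 and 0.073).

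Receptors and SMADs moved in both directions. Of 10 receptor and co-receptor genes 1, 3 and 1 were higher and 4, 5 and 1 lower in the 3 groups, to be read against the 32.3%, 44.8% and 25.6% of all genes called. The same shares apply to the SMAD, inhibitor, target and ligand counts that follow. Acvr1 rose by 0.59 ± 0.07 in 1bp-ins and 0.76 ± 0.09 in 3bp-12bp-del homozygotes, and in the latter Bmpr1b, a type I receptor gene, fell by 0.72 ± 0.16 log2 units. Acvr2b, a type II receptor gene, fell by 0.52 ± 0.12 in 1bp-ins and by 0.44 ± 0.07 in 3bp-del homozygotes. Bmpr2, the BMP type II receptor gene, fell by 0.51 ± 0.07 in 3bp-del, but with the trend with gene length removed it was 0.225 higher (adjusted p = 0.0385). Of 4 SMAD genes 0, 0 and 0 were higher and 0, 2 and 1 lower by edgeR (in 1bp-ins 1 of 4 had an unadjusted p under 0.05 and DESeq2 called 1, beside 5863 of all 16040 genes). Smad9, which carries the BMP signal, fell by 1.14 ± 0.32 in 3bp-del and by 1.43 ± 0.18 in 3bp-12bp-del homozygotes, and Smad4, the shared partner, by 0.23 ± 0.06 in 3bp-del. In 3bp-del the Smad9 call was lost without replicate 2 or 3 of wild-type XX (adjusted p = 0.0589 and 0.0635) and the Smad4 call without replicate 2 (adjusted p = 0.0644).

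Of 16 inhibitor genes 0, 2 and 1 were higher and 3, 3 and 4 lower. Tob1, an inhibitor of BMP SMADs, was lower by 0.39 log2 units in 1bp-ins (-0.39 ± 0.10, adjusted p = 0.0188), a call lost without replicate 3 of wild-type XX (adjusted p = 0.0874). Smad7, an inhibitory SMAD, was higher by 0.27 ± 0.05 and 0.29 ± 0.06 in 3bp-del and 3bp-12bp-del homozygotes by edgeR. Its direction was the opposite on log2(TPM + 1), at -0.29 (adjusted p = 0.00798) and -0.02 (adjusted p = 0.904). Of 5 measured targets 1, 1 and 1 rose and 1, 1 and 2 fell. Gata2, a transcription factor gene, was lower by 0.70 ± 0.20 in 1bp-ins, and Atoh8, a helix-loop-helix factor gene, was lower by 0.21 ± 0.07 in 3bp-del and by 0.55 ± 0.11 in 3bp-12bp-del homozygotes. The 3bp-del Atoh8 call ended without any library other than homozygous replicate 5 (adjusted p = 0.0541 to 0.116), and the Gata2 call without replicate 1, 2 or 3 of the homozygotes or replicate 1 of wild-type XX (adjusted p = 0.0521 to 0.0864). Of 6, 5 and 6 measured ligands 1, 0 and 1 were higher and 1, 1 and 2 lower. Bmp8a was higher by 1.71 ± 0.56 in 1bp-ins (adjusted p = 0.0438), and Bmp6, a ligand gene, by 0.66 ± 0.16 in 3bp-12bp-del (adjusted p = 0.0149). The Bmp8a call was lost without replicate 2 of the homozygotes or any wild-type XX library, by DESeq2 and with no filter, and the Bmp6 call without replicate 1 or 2 of wild-type XX (adjusted p = 0.0539 and 0.0639).

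Within the 15 homozygous XX libraries, the levels of the ovary-side genes went together. On log2 CPM, Bmp2 and Msx1 had a Pearson r of 0.844 and a Spearman rho of 0.629, Msx1 and Msx2 had an r of 0.799, and without the 2 libraries farthest from the median the values of r were 0.681 and 0.83. Msx1 had an r of 0.957 with the pregranulosa marker sum and -0.842 with the Sertoli marker sum, over the same libraries. The Id genes and Smad6 went together as well, with r = 0.893 between Id3 and Smad6, while Id3 and Bmp2 had r = 0.0875. Without the 2 farthest libraries these became 0.884 and 0.387, and the r of Msx1 became 0.881 with the pregranulosa sum and -0.591 with the Sertoli sum. These values describe libraries that share groups, controls for scaling and cell makeup, and were not tested. The part of cell makeup in the fall of Bmp2, Msx1 and Msx2 was not tested either.

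**Figure D5:**
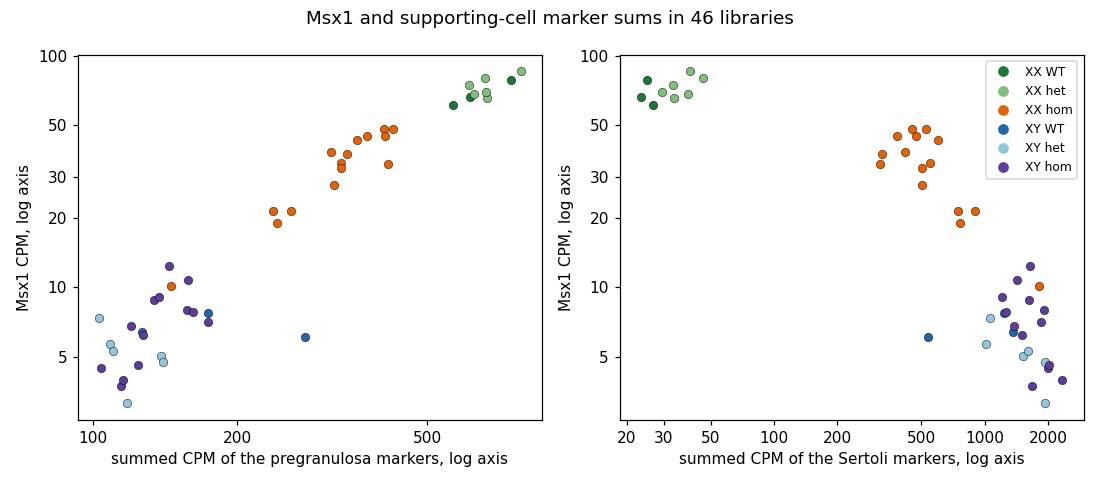
Msx1 level (CPM, log axis) against the summed CPM of 7 pregranulosa markers (left) and of 8 Sertoli markers (right), on log axes, with 1 point per library coloured by sex and genotype class. Among the 15 homozygous XX libraries Msx1 is higher where the pregranulosa sum is higher (r = 0.957) and lower where the Sertoli sum is higher (r = -0.842).

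Among 12329 expressed genes, those whose mean log2 CPM over the 12 groups was most like that of Bmp2 were Gpat3, Gabra4, Dhrs7, Stum and Dcaf12l1, with Pearson r of 0.9966, 0.9962, 0.9962, 0.9953 and 0.9952. Those most like Msx1 were Lhpp, Fst, Lypd6, Tkt and Aldoc, with r of 0.9941, 0.994, 0.9935, 0.9931 and 0.993. These are descriptions over 12 group means that share sex and genotype.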

How the data were processed

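Poly(A) RNA from whole gonads was sequenced in 46 libraries, which the labels place in 12 groups. The authors deposited a table of estimated counts (8 to 8.9% of values were not whole, per the values) and a table of TPM, both with 33331 gene rows, and the submitters' processing notes name the mouse build mm10. No aligner or counter is named there, and whether counting used strand is not given in the sources used. Whether reads of overlapping or antisense genes were told apart is therefore not known. A column in each deposited file, 1 apiece, matched no sample and was not used.

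The deposited estimated counts were rounded to whole numbers and tested with edgeR 4.0.16 (TMM scaling, its filter on low counts over the groups compared, robust quasi-likelihood fit) in R 4.3.3, with Benjamini-Hochberg adjustment over all genes tested and a threshold of 0.05. All 10 genes passed the filter in each of the 17 comparisons. TMM factors over all 46 libraries scaled the CPM, a prior count of 2 was added for log2 CPM, and the SE was derived from the F statistic. Alternatives were DESeq2 1.42.0, limma 3.58.1 on log2(TPM + 1) of the deposited TPM, RLE scaling, no filter, 1 fit over all groups, the replicate number as a block, removal of the trend with gene length, leaving out each library, and leaving out together 4 libraries with mesonephros or adrenal markers (wild-type XX replicate 1, wild-type XY replicate 3, XX 3bp-del homozygous replicate 4 and XY 3bp-del heterozygous replicate 1). Libraries with smaller adrenal sums and the XY 3bp-del homozygote with surface epithelium markers were kept in that fit. Gene length was not taken from an annotation but from the ratio of deposited counts to TPM, as the median over libraries. Removing the length trend and testing TPM are therefore not independent checks. Intervals of depth cover counting error only, and no pair of replicates was alike within sampling noise.

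The 10 genes, the pathway lists and the marker lists were chosen with earlier results of these data known. Values are printed for Bmp2 and Msx1 in every comparison, for other members where called, and for up to 2 called genes with the smallest p from each other list, of which 1 result is not reported here. Gene coordinates are from GENCODE on GRCm38 and promoter windows from RefSeq on GRCm38.p6.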

Additional observations from a re-analysis of the deposited data

Results flagged for a closer look

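Of 50 combinations of a gene and a group of 5 libraries, 9 had a library far from its fellows, by the gap to the nearest library as a share of the group's range on log2 CPM. Chance gives about 1 in 20. Msx2 accounts for 3 of them: replicate 3 of the XX 3bp-del homozygotes was low (4.63 CPM, share 0.786), replicate 2 of the XY 1bp-ins homozygotes was low (0.922 CPM, 0.874) and replicate 1 of the XY 3bp-del homozygotes was high (17.5 CPM, 0.814), the last in the library with high surface epithelium markers. Sostdc1 accounts for another 3: replicate 5 of the XX 1bp-ins homozygotes (13.1 CPM, 0.78) and replicate 4 of the XX 3bp-del homozygotes (7.26 CPM, 0.898) were high, and replicate 4 of the XY 1bp-ins homozygotes was low (2.88 CPM, 0.713). In the XX 3bp-12bp-del homozygotes Id2 was low in replicate 1 (49.5 CPM, 0.825) and Id3 was high in replicate 3 (111 CPM, 0.787). Smad6 was high in replicate 3 of the XY 3bp-del homozygotes (39.1 CPM, 0.719).

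The effect of the 3bp-del homozygous genotype on Bmp2 differed between XX and XY by 0.887 log2 units in a test of the difference itself (edgeR, adjusted p = 0.0416). The call was lost in 11 of 16 fits with 1 library left out, and in 1 fit over all groups and with the length trend removed (adjusted p up to 0.0592).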

How the results depend on the processing

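Direction of Bmp2, Msx1 and Msx2 in wild-type XY and in the homozygous XX groups against wild-type XX did not turn under any alternative run. Counts of the 10 genes moved as follows. Between the wild types 5 became 9 with DESeq2 and 9 without the marker-carrying libraries, and 3 to 8 with 1 library left out. Over all genes these fits called 2818, 6817 and 639 to 6937. In XX 1bp-ins homozygotes 4 became 2 with no filter and 2 without the marker-carrying libraries (1 to 4 with 1 library left out). Over all genes these fits called 4670 of 21791 and 3794 of 16258 (3026 to 5604). Against wild-type XY 0 became 3 with DESeq2 and 3 in 1 fit over all groups (0 to 3), beside 638 and 1960 over all genes (6 to 575). In XX 3bp-del homozygotes 6 became 2 in 1 fit over all groups (4 to 8). Over all genes 7174 of 16031 became 6731 of 17033 (5620 to 8191). In XX 3bp-del heterozygotes 1 became 2 with DESeq2 or limma and 0 with no filter, in 1 fit, with the length trend removed or without the marker-carrying libraries (0 with any library left out). Over all genes DESeq2 and limma called 2702 and 2301. The other fits, in that order, called 1660, 723, 415 and 1055 (166 to 1226 with any library left out). For the difference between sexes 0 became 1 in 1bp-ins with DESeq2 or 1 fit (0 to 1), 1 became 0 in 3bp-del with 1 fit or the length trend removed (0 to 1), and 0 became 2 by DESeq2 and 3 without the marker-carrying libraries in 3bp-12bp-del (0 to 4). Over all genes these fits called 407 and 512 in 1bp-ins, 1954 and 852 in 3bp-del, and 425 and 2530 in 3bp-12bp-del. With 1 library left out the all-gene counts ran from 71 to 1590, 234 to 3835 and 10 to 2957.

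Of the signs that turned, those of Bmpr2 and Smad7 in XX 3bp-del homozygotes were called in both directions (adjusted p = 0.0385 and 0.00798 after the turn), and the others were not called after it. On log2(TPM + 1) they were Bmp2 (-0.00592) and Msx1 (-0.0911) in XX 1bp-ins and 3bp-del heterozygotes, Bmp2 in homozygous XY 1bp-ins (-0.123) and XY 3bp-del (-0.0622), Id1 (-0.0497) and Smad7 (-0.291) in XX 3bp-del and Smad7 (-0.0216) in XX 3bp-12bp-del homozygotes. With the length trend removed they were Id1 (-0.0833) and Bmpr2 (0.225) in XX 3bp-del and Bmp2 (-0.00602) in XY 3bp-12bp-del homozygotes. Without the marker-carrying libraries Bmp2 was -0.00331 in XX 1bp-ins heterozygotes and -9.8e-05 in XY 1bp-ins, -0.00929 in XY 3bp-del and -0.0265 in XY 3bp-12bp-del homozygotes. With 1 library left out Bmp2 ran from -0.00331 to 0.145 and Msx1 from -0.0198 to 0.191 in XX 1bp-ins heterozygotes. In XY homozygotes Bmp2 ran from -0.0235 to 0.0911, -0.0662 to 0.0931 and -0.071 to 0.0389, and Msx1 from -0.222 to 0.0183, -0.0457 to 0.338 and -0.054 to 0.55. The cause was not tested.

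Whether the replicate numbers pair the libraries was not settled. In no comparison were all same-number correlations over 0.1, but with 3 pairs in each this cannot exclude a pairing. In XY 1bp-ins heterozygotes against wild-type XY all 3 libraries correlated best with their own number, at r of 0.0159 to 0.0816. With the replicate block 7 of the 10 genes were called in XX 1bp-ins homozygotes, beside 4859 of all 16040 genes tested. In XX 3bp-del heterozygotes the block called 0 of the 10, beside 507 of all 15742. Bmp2 in XY 1bp-ins homozygotes was -0.0423 with it. The block also ended the calls of Id1 in XX 3bp-12bp-del homozygotes and of Fst in XX 1bp-ins homozygotes (adjusted p = 0.0588).

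Counts over all genes moved between the wild types from 1738 to 1088 with the block, 2818 with DESeq2, 5044 in 1 fit and 6817 without the marker-carrying libraries. They moved from 5186 to 3332 with the length trend removed in XX 1bp-ins homozygotes, and with the block from 4088 to 1217 in the XX 3bp-12bp-del group. In XX 3bp-del heterozygotes 1721 became 2702 with DESeq2 and 415 with the length trend removed. In the XY mutants 0 to 2 became 17 to 178 with DESeq2, and in 1 fit up to 802 in 1bp-ins homozygotes. In XX 1bp-ins homozygotes against wild-type XY 20 became 1960 in 1 fit. For the difference between sexes, leaving out the marker-carrying libraries moved 171 to 1247 in 1bp-ins, 631 to 4294 in 3bp-del and 97 to 2530 in 3bp-12bp-del. Genes at few counts, such as Sostdc1 and Bmp8a, have the widest errors.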
